A study of Oryza sativa Indica Group with 12 samples.

Results

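The comparison described here is between rice seedlings that had spent 5 days in a medium without potassium (KM, K+ minus) and seedlings harvested just before that transfer (0h). It rests on 6 of the 12 arrays of the series, 3 for each group, and on all 57258 probe sets of the rice genome array that are not controls, of 57381 on the array. A probe set is a set of short oligonucleotides that together report one transcript, and its value is a normalized intensity, used here on the log2 scale.

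All seedlings were of the indica rice IR64 and were grown hydroponically. The 0h seedlings were 5 days old and had grown in the normal nutrient solution, which held potassium as 0.409 mM K2SO4. The KM seedlings were 5 days old at transfer, were kept for 5 days in a solution with 0 mM K2SO4, and were harvested at 10 days. Seedlings kept over the same 5 days at 0.409 mM K2SO4 (KP, K+ plus, 3 arrays) reached the same age with potassium. KM against KP therefore compares growth without and with potassium at the same age. The remaining 3 arrays (KR), in which potassium was given back for 6 h, entered the statistical fit but are not described. The 3 arrays of each group are labelled as biological replicates, and RNA came from whole seedlings without the seed. The titles and source names place the 0h arrays before transfer, whereas their treatment tag names the potassium deficient medium, and the titles were followed. KM and 0h seedlings differ in age, in medium and possibly in the hour of harvest. The sources do not state that hour, so these cannot be told apart in KM against 0h. It is not stated for KP either, so medium and hour cannot be told apart in KM against KP. In whole seedlings, fewer cells of a type and less RNA per cell cannot be told apart either.

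During these days a rice seedling stops living on the endosperm and feeds itself through new leaves and roots. Dividing cells at the root tip and leaf base express the DNA replication and mitotic genes, growing cells make primary wall, and greening leaves make chlorophyll. Potassium is taken up by transporters of the HAK family and by channels such as AKT1, and AKT1 is activated by the protein kinase CIPK23 together with calcium-binding CBL proteins. The circadian clock sets many transcripts by the hour, with CCA1 high around dawn and GI and PCL1 high towards evening.

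The deposited values were normalized across arrays, so the depth of single arrays cannot be read from them, and the median log2 intensity was 2.72 to 2.74 in 0h and 2.70 to 2.73 in KM. Pearson correlations across probe sets were 0.992 to 0.997 between KM arrays, 0.989 to 0.996 between 0h arrays and 0.845 to 0.866 between a KM and a 0h array. Against the same 0h arrays, KP arrays gave 0.854 to 0.875, and KM and KP arrays correlated at 0.942 to 0.955. Replicate 3 of 0h stood apart from replicates 1 and 2 for several low-oxygen, phytoalexin and embryo-maturation genes, as given at each of them.

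A probe set was called when limma's moderated test gave a Benjamini-Hochberg adjusted p under 0.05 and the groups differed by at least 2-fold, the study's thresholds. In KM, 3543 probe sets (6.19%) were higher than in 0h and 3399 (5.94%) were lower. The median change of those called was 1.68 upwards and -1.46 downwards on the log2 scale, against -0.009 over all probe sets. Changes of 4-fold or more numbered 1282 upwards and 780 downwards, and changes of 16-fold or more 194 and 47. Growth with potassium gave similar totals from the same 0h arrays, with 3362 higher (5.87%) and 3270 lower (5.71%) in KP, of which 1139 and 407 reached 4-fold. Between KM and KP, 546 probe sets (0.954%) were higher and 911 (1.59%) lower in KM. KM against 0h and KP against 0h share the 0h arrays, so their values are set side by side below and the difference is taken from KM against KP.

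Intensities near log2 2 to 3 are the array's background, and a group mean under 3.5 is called near background here, where the size of a fold change is uncertain. Of the probe sets called higher in KM, 723 (20.4%) were near background in 0h, and of those called lower, 487 (14.3%) were near background in KM. Among the 2430 genes with a name, each represented by its brightest probe set, 322 (13.3%) were higher and 390 (16.0%) lower in KM than in 0h, with a median change of -0.07. The counts of gene groups in KM against 0h are to be read against these shares. For the other comparisons only shares over all probe sets are given. These were 5.87% higher and 5.71% lower in KP against 0h, and 0.954% higher and 1.59% lower in KM against KP. With shares that low in KM against KP, few or no calls in a small group say little about it. Results on a gene group give the number of its genes called, the rest being not called.

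**Figure D1:**
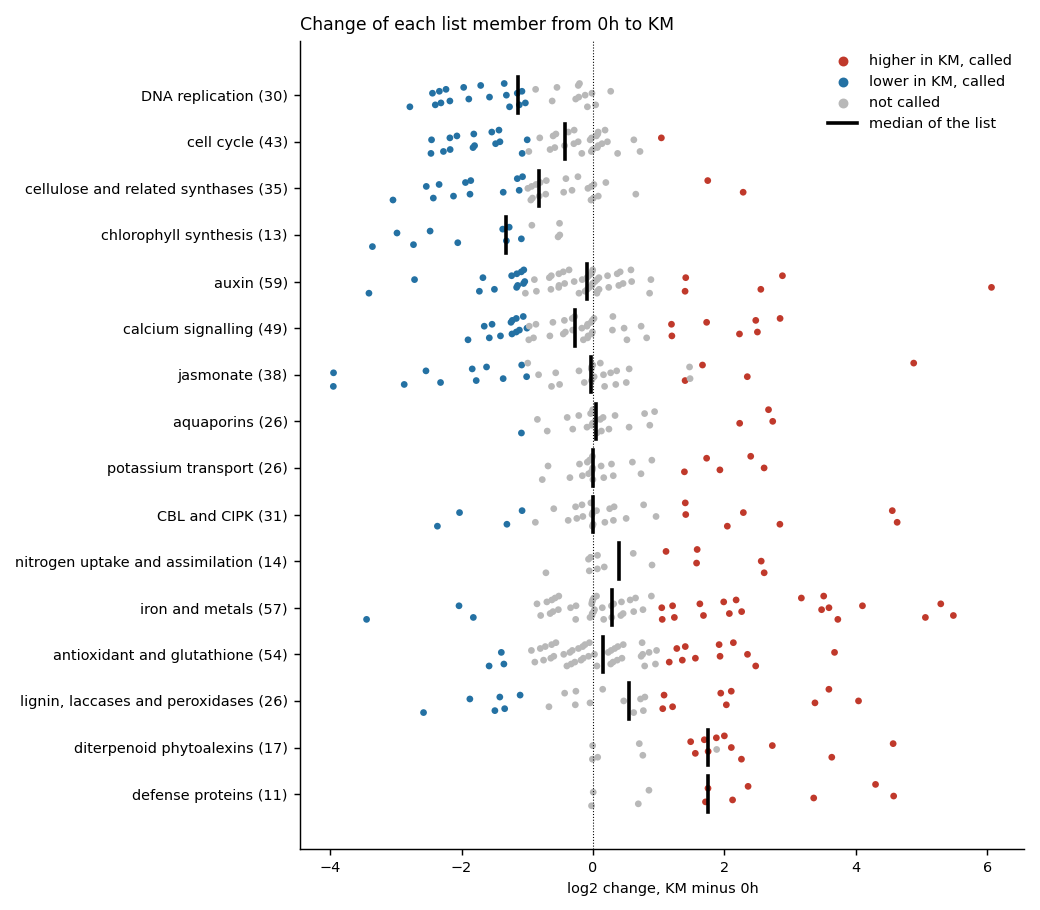
Change of each gene from 0h to KM (log2 difference of means, horizontal axis) for 16 gene groups (rows), 1 point per gene. Red points were called higher, blue points lower and grey points were not called, and a black bar marks the group's median, which is -1.14 for DNA replication, -1.32 for chlorophyll synthesis and 1.75 for diterpenoid phytoalexins.

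Genes of DNA replication fell together. Of 30 measured, 18 were lower in KM than in 0h, 0 were higher, and the group's median change was -1.14. The log2 intensity of MCM3, a subunit of the ring helicase that unwinds DNA at replication forks, was 9.26, 9.11 and 9.00 in the 0h arrays and 6.27, 6.40 and 6.34 in the KM arrays. This fall of 2.79 ± 0.09 (SE, n = 3 per group; limma adjusted p = 8.04e-08), 6.91-fold, left a wide gap between the groups. MCM5, from the same ring, read 9.65, 9.70 and 9.70 in 0h and 7.39, 7.36 and 7.28 in KM, a 5.06-fold fall. All 6 subunits of the ring fell, with changes of -2.40 for MCM7, -2.31 for MCM4, -1.97 for MCM6 and -1.89 for MCM2. ORC1, the subunit of the complex that marks replication origins, went from 6.95, 7.10 and 7.31 to 4.56, 4.76 and 4.71, and PCNA, the sliding clamp of the DNA polymerases, from 9.85, 9.86 and 9.63 to 8.30, 8.69 and 8.53. In each of these genes every KM array lay below every 0h array.

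The cell cycle group showed 15 of 43 genes lower and 1 higher, with a median of -0.43. CDKB2-1, a mitotic cyclin-dependent kinase, read 8.51, 8.36 and 8.67 in 0h and 6.41, 6.53 and 6.39 in KM, a fall of 2.07 ± 0.11 (limma adjusted p = 9.09e-07). The mitotic cyclin CYCB1-1 went from 8.93, 8.82 and 9.11 to 6.84, 6.91 and 6.59, and the cyclin CYCA2-1 from 8.71, 8.72 and 8.94 to 6.43, 6.57 and 6.55. Arrays of the 2 groups did not overlap for any of the 3 genes. A dimmer entry, named CycB1-1, shifted by -0.58 from 0h and 0.16 from KP and was called in neither comparison. The retinoblastoma-related gene Rbr1, a brake on entry into replication, also fell, by 2.47 ± 0.19. CYCD5-1, a D-type cyclin, was the member called higher, with 4.31, 4.40 and 4.07 in 0h and 5.31, 5.30 and 5.30 in KM, a call that was lost when 0h replicate 3 was left out.

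These falls were also seen in seedlings that had potassium. In KP against the same 0h arrays, 20 replication genes were lower with a median of -1.23, and 13 cell cycle genes were lower with a median of -0.57. Between KM and KP, 0 of the 30 replication genes and 1 of the 43 cell cycle genes were called. That gene was CYCP2-1, a cyclin of the P type, at 4.51, 5.62 and 5.34 in KM and 6.21, 6.35 and 6.55 in KP. Some mitotic genes passed the p threshold in KM against KP with shifts under 2-fold, such as CYCB1-1 (-0.60 ± 0.12, limma adjusted p = 0.0146) and CDKB2-1 (-0.44 ± 0.11, adjusted p = 0.0328), and others did not, such as CYCA2-1 (0.11, adjusted p = 0.958) and CYCB2-1 (-0.30, adjusted p = 0.0973).

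Cell wall synthesis changed in the same direction. The group holds 35 genes, namely cellulose and related synthases and genes named BC1, BC1-like (BC1L) or BC2, which are not named as synthases. Of these, 12 were lower and 2 higher in KM than in 0h, with a median of -0.82. The 12 include BC1L9, BC1L2 and BC1, and BC1L9 had the largest fall of the group, 8.25-fold. An entry named both BC1 and bHLH081 was not called. CESA6, a catalytic subunit of the cellulose synthase of primary walls, read 11.91, 11.99 and 12.18 in 0h and 9.73, 9.71 and 9.62 in KM, a 5.08-fold fall (-2.34 ± 0.09, limma adjusted p = 1.81e-07). CESA5 went from 10.55, 10.59 and 10.38 to 8.77, 8.55 and 8.62, and CSLF6, which makes the mixed-linkage glucan of grass walls, from 11.77, 11.56 and 11.50 to 9.83, 9.64 and 9.74. CESA4, a subunit for secondary walls, fell less, by 1.15 ± 0.11. The members called higher were CSLE1 (2.29 ± 0.27) and CSLH1 (1.75 ± 0.10). None of the 35 was called between KM and KP. Some passed the p threshold there with shifts under 2-fold. CESA5 (-0.49 ± 0.09, limma adjusted p = 0.00728) and CESA4 (-0.45 ± 0.11, adjusted p = 0.0312) were lower in KM. Others were higher in KM, such as CSLA1 (0.46 ± 0.05, adjusted p = 0.000914). CESA6 (-0.30, adjusted p = 0.0799) and CSLF6 (-0.19, adjusted p = 0.310) did not pass it. In KP against the same 0h arrays the count was 12 lower and 2 higher, not all of them the same genes, since CESA4 (-0.71) did not reach 2-fold there.

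**Figure D2:**
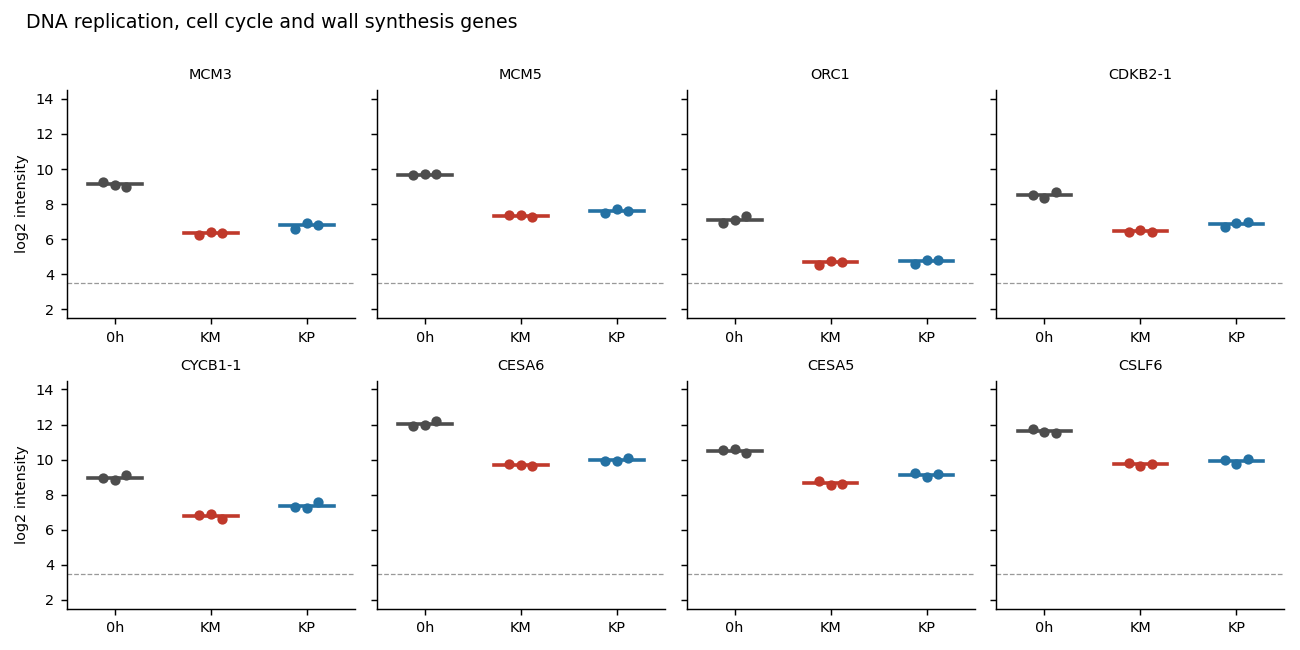
Log2 intensity (vertical axis) of 8 replication, cell cycle and wall synthesis genes on the 3 arrays of 0h (grey), KM (red) and KP (blue), with a bar at each group mean and a dashed line at 3.5, under which a mean is near background. In every panel the 3 KM arrays lie below the 3 0h arrays, as for MCM3 at 6.27 to 6.40 against 9.00 to 9.26, and the KP arrays lie close to KM.

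Among 30 expansins and related wall-loosening genes 4 were higher and 5 lower, shares close to those over all named genes, and the methods' t-test called 2 higher. EXLA4, an expansin-like gene, fell by 2.89 ± 0.22 and EXPB2, a beta-expansin, rose by 1.90 ± 0.20. EXPB2 read 4.48, 4.78 and 5.04 in 0h and 6.80, 6.82 and 6.38 in KM, but 8.12, 8.40 and 8.72 in KP, so that KM lay between the other groups without overlap (KM against KP -1.74 ± 0.20, limma adjusted p = 0.00071). In the group of lignin enzymes, laccases and peroxidases, 9 of 26 were higher and 6 lower. The laccase LAC24 went from 5.53, 5.75 and 7.31 in 0h to 10.38, 10.14 and 10.20 in KM against 7.77, 8.39 and 7.85 in KP, and was higher in KM than in both. CAD3, a cinnamyl alcohol dehydrogenase gene, read 10.65, 10.33 and 10.34 in 0h and 7.76, 7.99 and 7.82 in KM, whereas its KP mean of 10.32 stayed at the 0h level (KM against KP -2.46 ± 0.09, limma adjusted p = 1.88e-06).

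Chlorophyll synthesis had the largest share of members called between KM and KP among the 40 gene groups examined. The groups were chosen with earlier results of these data known, so this rank is no independent result. Of the 13 chlorophyll synthesis genes, 9 were lower in KM than in 0h and 0 higher, with a median of -1.32. In KP 4 were lower than in 0h, with a median of -0.33. In KM against KP directly, 7 of the 13 were lower, with a median of -1.05. CAO, the oxygenase that makes chlorophyll b, read 10.65, 10.71 and 10.51 in 0h and 7.29, 7.31 and 7.20 in KM, with a KP mean of 10.30. Its fall of 3.36 ± 0.08 (limma adjusted p = 1.51e-08) was 10.3-fold, and KM lay 3.04 ± 0.08 below KP (adjusted p = 2.60e-07).

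GLK1, a transcription factor that promotes chloroplast development, read 8.72, 8.72 and 8.44 in 0h and 5.66, 6.04 and 5.98 in KM against a KP mean of 9.06. CHLH, the large subunit of the magnesium chelatase that commits the pathway to chlorophyll, went from 10.20, 10.07 and 10.08 to 7.73, 7.75 and 7.43, with KP at 10.59. For both genes KM was the low group and did not overlap either of the others, with KM against KP at -3.16 ± 0.11 and -2.95 ± 0.16. CHLP, the geranylgeranyl reductase that makes the chlorophyll side chain, PORB, a protochlorophyllide oxidoreductase, and GLK2 were lower in KM than in KP by 1.90, 1.05 and 1.48. PORA, the oxidoreductase typical of seedlings before full greening, was lower in KM than in 0h by 2.98 ± 0.17 and was already reduced in KP, at 8.45, 8.52 and 8.29.

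The remaining members of the group were not called between KM and KP. With shifts under 2-fold, CHLD (0.75 ± 0.12, limma adjusted p = 0.00517) and GSA (0.44 ± 0.12, adjusted p = 0.0466) were higher in KM than in KP. HEMB was lower (-0.82 ± 0.06, limma adjusted p = 5.15e-05), and HEMD, CHLI and CHLG did not pass the p threshold. HEMD fell by 1.09 ± 0.15 and CHLI by 1.32 ± 0.24 from 0h. In KP the changes of these 2 genes from 0h were -1.50 and -1.32, and CHLI was near background in KM and KP. HEMB (-0.93), GSA (-0.53), CHLD (-0.51) and CHLG (-0.51) did not reach 2-fold. A further probe set, annotated in the study's category table as magnesium-protoporphyrin cyclase (LOC_Os01g17170), was among the largest falls at 9.34, 9.34 and 9.02 in 0h, 4.22, 4.66 and 4.53 in KM and a mean of 7.69 in KP. Genes named by locus come from that table. The study built it from calls on these arrays, and the direction of such genes adds no independent support.

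The lists of photosynthesis genes were short and held 1 antenna gene. Of 6 light reaction genes 1 was higher and 0 lower in KM than in 0h, and of 10 carbon fixation and photorespiration genes 4 were higher and 0 lower. CAB2R, a chlorophyll-binding antenna protein, read 14.11, 14.09 and 14.11 in 0h and 13.48, 13.47 and 13.46 in KM, a tight shift of -0.63 that stayed under 2-fold. LFNR1, which passes electrons to NADP at the end of the light reactions, went from 10.52, 10.36 and 10.15 to 12.65, 12.39 and 12.30 (2.10 ± 0.12, limma adjusted p = 1.28e-06). The photorespiratory glycolate oxidases GLO5 and GLO4 rose by 2.38 and 1.75, CFBP1, a fructose bisphosphatase gene, by 1.64, and GLO1, also a glycolate oxidase, was called higher too. In KP against the same 0h arrays GLO5 (2.12), GLO4 (1.65), CFBP1 (2.01) and LFNR1 (1.46) were called higher as well. GLO1 (0.93) stayed under 2-fold there. These genes were not called between KM and KP, although LFNR1 was 0.65 higher in KM (limma adjusted p = 0.00784). Against KP, PSAG of photosystem I was lower in KM by 1.92 and rca, the activase of Rubisco, by 1.21, although neither was called against 0h. Other probe sets of rca (1.73) and RBCS (1.21 and 1.01) were called higher in KM than in 0h, so the probe sets of these genes differ.

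The study's category table holds 11 further probe sets annotated as chlorophyll A-B binding antenna proteins or photosystem subunits. They were looked up after the other values had been seen. Of these, 2 were lower and 0 higher in KM than in 0h, and 0 were lower and 4 higher in KP than in 0h. All 11 were lower in KM than in KP, a direction that the table's own selection favours. LOC_Os03g39610 read 12.73, 12.72 and 12.63 in 0h, 10.47, 10.58 and 10.49 in KM and 13.10, 13.21 and 13.08 in KP, and fell by 2.18 ± 0.07 from 0h (limma adjusted p = 6.12e-08). LOC_Os07g37550 read 10.37, 10.46 and 10.27 in 0h, 9.61, 9.90 and 9.80 in KM and 11.82, 12.22 and 12.08 in KP. For the first of them KM left the 0h level, and for the other the rise in KP made most of the gap of 2.27 between the media.

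The whole-seedling RNA mixes leaf and root. The 4 leaf marker genes (CAB2R, rca, RBCS and RBCS1, the last near background in all groups) were not called, and the sum of their intensities per array ranged over 32591 to 34715 for 0h, 29589 to 30628 for KM and 42190 to 46015 for KP. Of 14 root marker genes 6 were higher and 2 lower in KM than in 0h, with a median of 0.63 and a summed intensity of 6714 to 7721 in 0h, 7401 to 8788 in KM and 12332 to 17629 in KP. Both sums were highest in KP. The root genes IRT1 and osysl15, iron uptake genes, were near background throughout. The part of the leaf and root shares in the changes of other genes was not tested.

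Clock genes gave some of the largest changes of the comparison. CCA1, the MYB factor of the morning loop, read 11.59, 11.57 and 11.24 in 0h and 6.28, 6.42 and 5.98 in KM, a fall of 5.24 ± 0.17 (limma adjusted p = 9.10e-08), 37.9-fold. PCL1, an evening component that represses morning genes, went from 7.14, 7.31 and 7.16 to 12.31, 12.55 and 12.54, a rise of 5.26 ± 0.09. GI, an evening gene that links the clock to flowering time, rose from 6.00, 6.03 and 6.66 to 11.11, 11.32 and 11.18. The groups did not overlap in any of these 3 genes. PRR37 (1.88 ± 0.17) and PRR95 (1.08 ± 0.05), pseudo-response regulators, also rose, so that 4 of 8 clock genes were higher and 1 lower. PRR73 (0.97) and PRR1 (0.59) did not reach 2-fold and Hd1 was near background.

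The KP arrays split these genes. PCL1 and GI were also up in KP, with means of 11.39 and 10.47, whereas CCA1 in KP read 10.89, 11.12 and 10.80, close to 0h. KM was therefore 4.71 ± 0.17 below KP for CCA1 (limma adjusted p = 1.59e-06), 1.08 above KP for PCL1 and 1.09 below KP for PRR95. Hours of harvest are not stated for any group. Their part in these values, and in the other differences between KM and KP, was not tested.

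**Figure D3:**
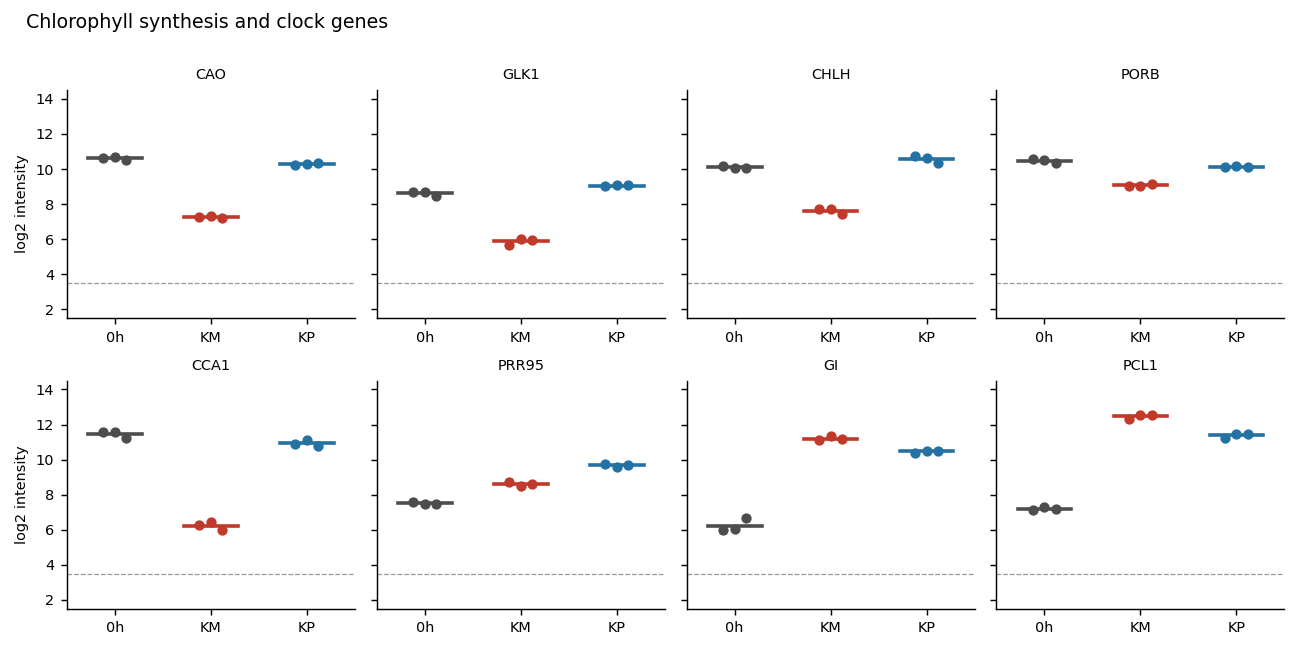
Log2 intensity (vertical axis) of 4 chlorophyll synthesis genes or regulators and 4 clock genes on the 3 arrays of 0h (grey), KM (red) and KP (blue), with bars at group means and a dashed line at 3.5. CAO, GLK1, CHLH and CCA1 are low in KM alone of the 3 groups (CCA1 at 5.98 to 6.42), whereas GI and PCL1 are high in both KM and KP.

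Most potassium transport genes were not called. Of 26 measured, 5 were higher in KM than in 0h and 0 lower, with a median of 0.00, and in KP 5 were higher too. HAK1, a root potassium transporter, read 7.75, 7.57 and 9.07 in 0h and 9.91, 9.94 and 9.72 in KM (1.73 ± 0.32, limma adjusted p = 0.00249). The KM arrays were above all 0h arrays, of which replicate 3 was closest. In KP it read 9.14, 9.05 and 9.16, and the KM excess over KP of 0.74 ± 0.32 did not pass the limma test (adjusted p = 0.246). The call against 0h was lost by the methods' t-test.

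HAK5 was measured by a bright and a dim probe set that disagree. The bright one, which represents the gene in the counts, gave 12.33, 12.26 and 12.66 in 0h and 12.33, 12.31 and 12.45 in KM, with no difference beyond the spread (-0.05). The dim one gave 3.02, 3.30 and 3.33 in 0h, 6.64, 7.06 and 7.10 in KM and 5.54, 5.34 and 4.73 in KP. It rose by 3.72 ± 0.25 from 0h (limma adjusted p = 4.06e-06) and lay 1.73 ± 0.25 above KP (adjusted p = 0.00276). The 3 groups did not overlap on the dim probe set, and KM was highest. Which of them reports HAK5 in IR64 was not tested.

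HAK27 ran the other way, at 2.48, 2.47 and 2.57 in 0h, 4.60, 4.95 and 5.17 in KM and 6.82, 6.38 and 6.32 in KP. It rose from near background in both media and was 1.60 ± 0.16 lower without potassium than with it (limma adjusted p = 0.000328), the one call among the 26 genes between KM and KP. HAK17 went from 5.51, 5.70 and 6.13 in 0h to 8.02, 8.59 and 8.53 in KM, and HAK16 from 4.73, 5.00 and 5.38 to 7.11, 7.02 and 6.77. HAK18 rose by 1.39 ± 0.11. These 3 HAK genes were not called between KM and KP. The channel gene AKT1 read 6.18, 6.39 and 6.49 in 0h and 6.93, 7.27 and 7.06 in KM, with a shift of 0.73 (limma adjusted p = 0.00121) that stayed under 2-fold. HKT1 and HAK3, HAK4, HAK13, HAK14, HAK20 and HAK26 were near background in 0h, KM and KP.

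Among 31 CBL and CIPK genes, 7 were higher and 4 lower in KM than in 0h. CIPK10 read 3.65, 3.59 and 3.56 in 0h and 8.12, 8.02 and 8.31 in KM, a 23.5-fold rise (4.55 ± 0.10, limma adjusted p = 1.02e-08), with a KP mean of 8.14. CIPK5 went from 3.01, 3.48 and 2.78 to 7.48, 7.87 and 7.81, and CIPK23, the AKT1-activating kinase, from 7.66, 7.68 and 8.46 to 10.73, 10.78 and 10.82. None of these 3 kinases differed between KM and KP by more than 0.30. Another probe set of CIPK23 shifted by -0.88 and was not called. Without potassium, 3 members were lower than with it, among them CIPK29 (KM against KP -1.74), which fell from 5.09, 5.09 and 5.25 in 0h to 3.02, 3.06 and 3.25 in KM, and CBL4 (-1.67).

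Nitrogen genes rose in part. Of 14, 5 were higher and 0 lower in KM than in 0h. AMT1-2, an ammonium transporter of roots, went from 2.90, 3.26 and 3.16 to 5.93, 5.45 and 5.74 and was not called between KM and KP. GLN1-2, a cytosolic glutamine synthetase, read 10.20, 10.40 and 10.53 in 0h, 12.08, 11.96 and 11.84 in KM and 10.61 on average in KP, so that KM stood above both (KM against KP 1.35 ± 0.13, limma adjusted p = 0.000388). Nitrate reductase NIA1 read 10.79, 10.60 and 10.54 in KM and 12.62, 12.77 and 12.48 in KP, and AMT1, another ammonium transporter, 6.84, 6.93 and 6.59 against 8.58, 8.63 and 8.59. For these 2 genes KM stayed within 2-fold of 0h and was lower than KP by 1.98 and 1.81. Among 19 phosphate genes 5 were higher and 0 lower than in 0h, and none was called between KM and KP. The largest rise was that of PHR3, a regulator of phosphate starvation genes, at 3.30 ± 0.24. This group held no sulfate gene. The probe sets of the phosphate transporter PHT1-1 disagreed, the brighter rising by 1.80 and the other falling by 2.87.

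Metal genes were the group with the most members called, 19 of 57 higher and 3 lower. MT2A, a metallothionein that binds copper and zinc, read 7.81, 8.08 and 7.43 in 0h and 12.81, 12.89 and 12.79 in KM, a 33.3-fold rise (5.06 ± 0.14, limma adjusted p = 4.09e-08). MT1A went from 9.05, 9.13 and 9.37 to 13.21, 13.26 and 13.39, and MT4C and MT4A rose by 5.49 ± 0.39 and 5.29 ± 0.30. The metallothioneins are a family of short, similar transcripts, and cross-hybridization between their probe sets was not tested. None of these 4 was called between KM and KP. YSL13, of the family that carries metal-nicotianamine complexes, went from 4.42, 4.67 and 4.45 to 8.04, 8.39 and 8.28, and the copper-transporting ATPase HMA5 from 4.59, 4.60 and 4.55 to 6.66, 6.90 and 6.72. Zinc and iron transporters of the ZIP family made up 8 of the 19 higher genes, among them ZIP1 at 3.17 ± 0.30.

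NAS1 and NAS2, nicotianamine synthase genes that make a metal chelator, fell without potassium, whereas NAS3 shifted by 0.42 from 0h and 0.23 from KP and was not called in either comparison. NAS1 read 7.62, 7.50 and 8.68 in 0h, 5.01, 4.43 and 4.03 in KM and 7.92, 9.24 and 6.01 in KP. KM was below every array of the other groups, by 3.45 ± 0.70 from 0h (limma adjusted p = 0.00443) and by 3.23 ± 0.70 from KP (adjusted p = 0.0188). NAS2 was also lowest in KM, at -2.04 ± 0.57 from 0h and -2.89 ± 0.57 from KP. The ferric reductase gene FRO1 read 7.64, 7.58 and 7.59 in 0h, 4.65, 4.44 and 4.15 in KM and 9.26, 9.32 and 9.08 in KP. It fell by 3.19 ± 0.15 without potassium while it rose in KP, and the media differed by -4.81 ± 0.15 (limma adjusted p = 6.52e-07). VIT2, a vacuolar iron transporter gene, was lower in KM than in KP by 2.30 and was not called against 0h (-0.85, limma adjusted p = 0.0851).

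**Figure D4:**
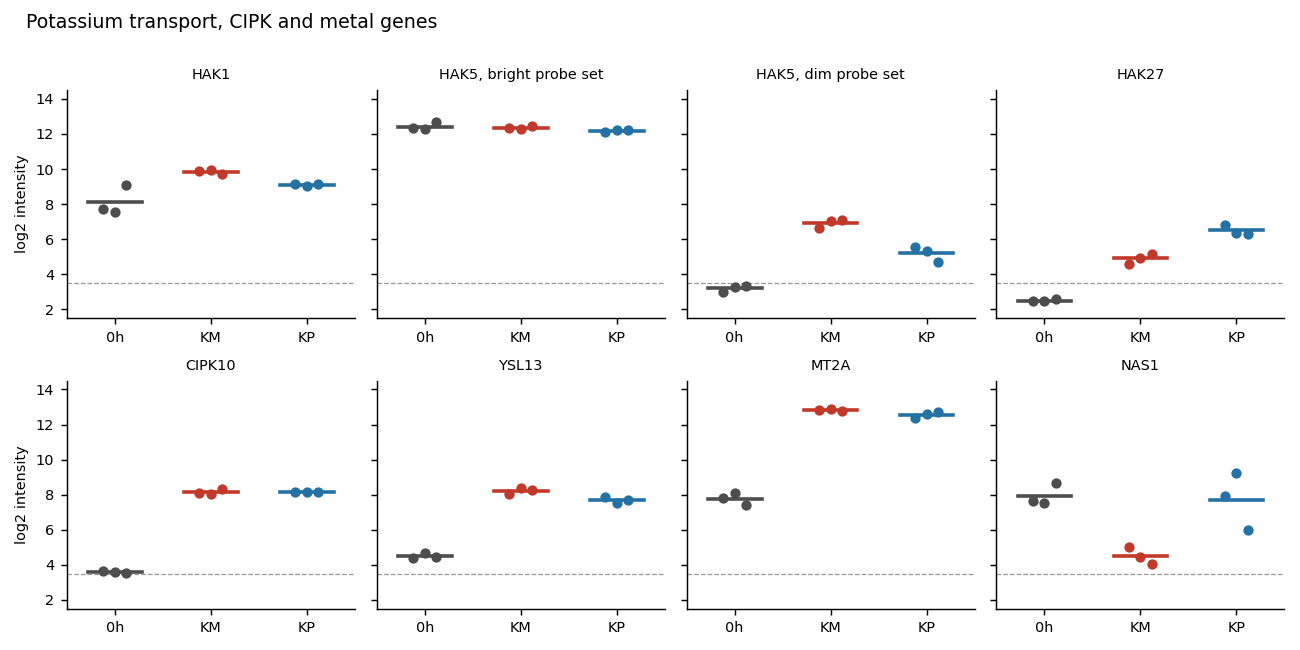
Log2 intensity (vertical axis) of potassium transporter, CIPK and metal genes on the 3 arrays of 0h (grey), KM (red) and KP (blue), with bars at group means and a dashed line at 3.5. HAK5 is shown by both probe sets, of which the bright one is level near 12.3 and the dim one is highest in KM (6.64 to 7.10), and NAS1 is lowest in KM (4.03 to 5.01).

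Of 26 aquaporin genes 3 were higher and 1 lower in KM than in 0h. PIP2-7, a plasma membrane water channel, went from 10.13, 10.11 and 9.29 to 12.73, 12.55 and 12.46, and the root silicon channel Lsi1 from 8.50, 8.67 and 8.32 to 11.34, 11.06 and 11.11. In KP 10 of the 26 were higher than in 0h, and 5 were called lower in KM than in KP. PIP2-4 read 7.35, 6.74 and 6.46 in KM and 8.44, 8.95 and 9.29 in KP, and the others were TIP2-1 (-2.01), TIP1 (-1.73), PIP2-5 (-1.50) and PIP1-3 (-1.35). None of these 5 was called against 0h. PIP2-5 and TIP2-1 are also root markers, and the root marker sum was higher in KP than in KM, as given above. That sum contains both genes, so it gives no independent measure of the root share beside them. TIP2-1 read 10.80, 10.15 and 10.17 in KM and 11.95, 12.42 and 12.77 in KP.

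The largest rise among annotated probe sets was that of AMY1A, an alpha-amylase that digests starch and is best known from the germinating grain. It read 2.26, 2.22 and 2.58 in 0h, which is background, and 13.51, 13.29 and 13.28 in KM. The change was 11.00 ± 1.81 (limma adjusted p = 0.00117), its error being set by KP, where the arrays read 10.99, 3.49 and 2.54. KM was above all 3 KP arrays (7.69 ± 1.81, limma adjusted p = 0.0266), a call that was lost when KP replicate 2 or 3 or any KM replicate was left out (adjusted p = 0.0714 to 0.091) and that became 10.34 ± 0.37 without KP replicate 1.

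A pair of further probe sets annotated as alpha-amylase behaved alike. LOC_Os09g28430 read 2.19, 2.45 and 2.38 in 0h, 8.93, 8.27 and 8.19 in KM and 4.04, 2.36 and 2.14 in KP, and LOC_Os02g52700 read 2.45, 2.44 and 2.41, then 7.01, 6.04 and 6.49 in KM and 2.45, 2.42 and 2.41 in KP. The KM arrays lay well above background and the others near it, with KP replicate 1 of the first (4.04) the highest of those, and KM against KP was 5.62 ± 0.47 and 4.09 ± 0.23. EP3A, a cysteine proteinase, showed the same pattern at 7.41, 6.38 and 7.22 in KM and 3.32, 1.94 and 2.27 in KP. Other starch breakdown genes did not join them, since AMY1A was the only one of 8 called, and the amylases AMY3A, AMY3E and amy2A were near background in all groups. Cross-hybridization among the amylase probe sets was not tested.

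Genes of embryo maturation fell. Of 17, 7 were lower in KM than in 0h and 0 higher. RAB16D, a dehydrin of the maturing embryo, read 10.44, 10.46 and 8.39 in 0h and 5.47, 4.33 and 4.21 in KM (-5.09 ± 1.01, limma adjusted p = 0.00372), with KP scattered at 5.16, 9.41 and 7.98. RAB16B, RAB16C, RAB21, rab25, LEA19 and EM fell as well, and none of the 17 was called between KM and KP. KM replicate 1 lay above 0h replicate 3 for RAB16B (6.03 against 5.98) and RAB21 (9.03 against 8.84), so the groups overlapped there. Both rab25 and EM were near background in KM and KP. The 7 calls became 4 when KM replicate 2 or 3 or 0h replicate 1 or 2 was left out. The glutelins GLUA-1, GLUA-3, GLUB-4, GLUB-5 and GluC and the prolamin PROLM25, the storage proteins of the endosperm, were near background in all groups. The summed intensity of the 17 genes was 1248 to 5127 in 0h, 415 to 1012 in KM and 681 to 2186 in KP.

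Sugar genes moved in both directions. The sucrose-cleaving synthases SUS4 (6.50, 6.81 and 6.61 in 0h and 9.28, 9.54 and 9.44 in KM) and Sus2 (9.65, 9.68 and 9.68 and then 11.57, 11.65 and 11.55) rose, and the starch synthase SSI fell by 1.73 ± 0.18. Of 18 sugar transport genes 2 were higher and 5 lower. SWEET15, of the family of sugar exporters, went from 9.40, 9.44 and 7.70 to 4.47, 4.58 and 4.24, and SWEET2B from 7.25, 7.44 and 6.60 to 2.85, 3.45 and 3.44, near background. SWEET15 was also lower in KP than in 0h, at 5.45, 5.10 and 5.48. It was not called between KM and KP (-0.92 ± 0.40, limma adjusted p = 0.250). SWEET2B stayed at 6.41, 6.46 and 6.95 in KP (KM against KP -3.36 ± 0.25, limma adjusted p = 7.30e-05).

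Diterpenoid phytoalexins, the antimicrobial compounds of rice such as momilactones and phytocassanes, had 11 of 17 synthesis genes higher and 0 lower in KM than in 0h, with a median of 1.75. In KP 4 were higher, with a median of 0.65, and in KM against KP 3 were higher and 0 lower. CYP99A3, a momilactone P450, read 4.42, 5.25 and 5.54 in 0h, 9.87, 9.55 and 9.49 in KM and 9.20 on average in KP, so it was high in both media. CYP71Z7, a phytocassane P450, read 6.53, 6.71 and 7.37 in 0h, 10.28, 10.52 and 10.71 in KM and 8.40 on average in KP (KM against KP 2.10 ± 0.44, limma adjusted p = 0.0162). DTC1, a diterpene cyclase, went from 7.10, 6.96 and 7.59 to 8.97, 9.09 and 8.85 with KP at 7.64, and CYP76M6 from 2.21, 2.17 and 2.22 to 3.73, 3.61 and 3.95 with KP at background. For these last 3 genes the KM arrays lay above all arrays of both other groups. In 0h replicate 3 the diterpene cyclase CPS2 (7.84 against 6.38 and 6.45) and CYP99A2 (7.51 against 4.53 and 4.81) were above the other replicates.

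Defense proteins rose in both media, with 7 of 11 higher than 0h in KM and 9 in KP. PBZ1, a pathogenesis-related protein, read 9.05, 9.20 and 9.60 in 0h and 13.27, 13.75 and 13.73 in KM, a 19.7-fold rise, with KP at 13.27 on average. The chitinase Cht11 went from 4.28, 4.35 and 4.52 to 8.30, 9.36 and 9.22. None of the 11 was called higher in KM than in KP, and the chitinase Cht10 was lower by 1.12.

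**Figure D5:**
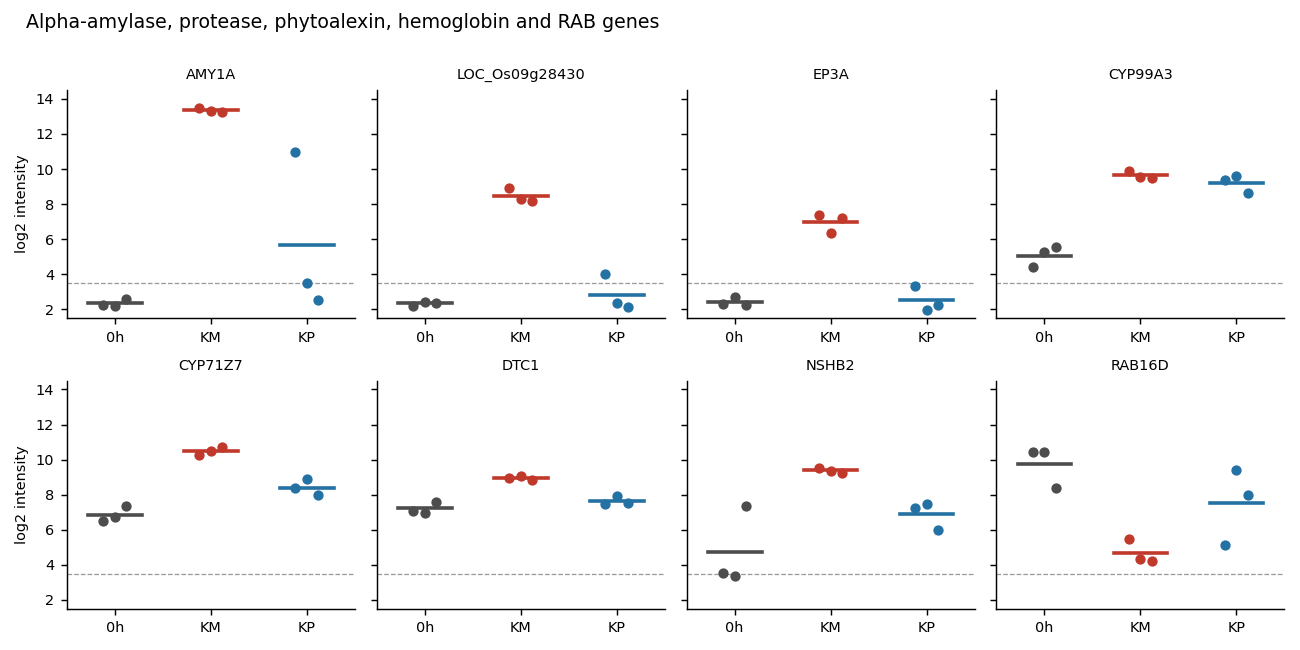
Log2 intensity (vertical axis) of amylase, proteinase, phytoalexin, haemoglobin and dehydrin genes on the 3 arrays of 0h (grey), KM (red) and KP (blue), with bars at group means and a dashed line at 3.5. AMY1A, LOC_Os09g28430 and EP3A rise from background in KM, and 1 KP array of AMY1A (10.99) stands far from the other 2.

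Of 6 genes of the response to low oxygen, 3 were higher in KM than in 0h. The non-symbiotic haemoglobins NSHB2 (3.53, 3.39 and 7.36 in 0h and 9.54, 9.37 and 9.25 in KM) and NSHB1 (6.26, 5.69 and 8.23 and then 8.95, 8.57 and 8.78) and the alcohol dehydrogenase Adh2 (6.89, 7.73 and 9.24 and then 10.17, 9.90 and 9.93) were higher on every KM array. Their 0h replicate 3 was high each time, and leaving out KM replicate 1 or 0h replicate 1 or 2 reduced the 3 calls to 1. PDC2, a pyruvate decarboxylase, was not called against 0h and was 1.22 higher in KM than in KP.

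Of 38 jasmonate genes 11 were lower, 4 higher and 23 not called in KM against 0h, with a median of -0.03, and 8 of the 11 were JAZ genes, which encode repressors of the response and are themselves induced by the hormone. JAZ10 read 13.02, 13.06 and 12.89 in 0h and 9.87, 10.78 and 10.69 in KM, with KP at 12.36 on average. JAZ9 went from 11.14, 11.02 and 11.19 to 6.21, 7.80 and 7.47, and JAZ13 from 12.58, 12.49 and 12.41 to 7.66, 8.89 and 9.08. KM was lower than KP by 1.91 ± 0.24, 2.79 ± 0.44 and 3.46 ± 0.48 for these 3 genes (limma adjusted p = 0.00128, 0.00421 and 0.00214). OPR5, an oxophytodienoate reductase gene, moved the other way, from 6.14, 6.09 and 7.89 to 11.70, 11.52 and 11.56 with a KP mean of 10.72.

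Of 59 auxin genes 5 were higher and 13 lower, and 8 of the 13 were auxin response factors. ARF12 was the tightest, at 10.17, 10.20 and 10.21 in 0h and 8.49, 8.55 and 8.50 in KM (-1.68 ± 0.07, limma adjusted p = 2.34e-07), and was not called between KM and KP (-0.09). The auxin-induced SAUR39 rose from 2.43, 2.83 and 3.62 to 8.56, 9.35 and 9.17 and was 1.59 ± 0.34 higher than in KP. In abscisic acid signalling the kinase genes SAPK3 (5.55, 5.34 and 5.24 and then 8.99, 9.25 and 9.32) and SAPK9 (2.87 ± 0.10) rose and were not called between KM and KP, whereas the bZIP factor gene ABF2 fell from 11.43, 11.40 and 11.05 to 9.32, 9.38 and 9.22 and was 1.10 lower than in KP. Calcium signalling had 7 of 49 genes higher and 13 lower, and 8 of the 49 were lower in KM than in KP. CML1, a calmodulin-like gene, read 9.75, 9.54 and 9.81 in 0h, 11.99, 11.98 and 11.81 in KM and 10.36 on average in KP, and CPK9, a calcium-dependent kinase gene, 5.98, 5.99 and 6.04, then 4.53, 4.38 and 4.13, with KP at 6.04. CML1 was thus high and CPK9 low in KM alone of the 3 groups, by 1.57 and 1.69 relative to KP.

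Of 54 thioredoxin, glutathione and other antioxidant genes 11 were higher and 3 lower. TRXH, a cytosolic thioredoxin, went from 9.73, 9.56 and 9.38 to 13.17, 13.29 and 13.24 (3.68 ± 0.08, limma adjusted p = 1.02e-08), and the catalase catA rose by 1.93 ± 0.14. None of the 54 was called higher in KM than in KP, and 4 were lower. Further groups, in KM against 0h, were cytokinin (7 of 31 higher and 3 lower), heat shock (4 and 4 of 33), bZIP factors (6 and 5 of 20), homeobox genes (5 and 8 of 50) and MADS box genes (6 and 0 of 31). MADS50 and MADS56, regulators of flowering time, rose by 2.10 ± 0.14 and 1.99 ± 0.14 with no call against KP.

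Besides AMY1A, the largest rises among annotated probe sets included an oxidoreductase (LOC_Os11g14910), at 3.00, 3.05 and 2.88 in 0h and 10.26, 9.94 and 9.97 in KM, and a glutathione S-transferase (LOC_Os01g72140), at 2.69, 3.39 and 3.39 and then 9.76, 10.44 and 10.16. A DnaJ-type chaperone (LOC_Os04g57880) rose from 2.37, 2.33 and 2.29 to 9.12, 9.29 and 9.42 and was also 2.88 ± 0.08 above KP. BBD1, annotated as a DNA-binding protein, went from 6.78, 6.47 and 7.14 to 12.51, 12.70 and 12.62. The cysteine proteinase inhibitor cystatin rose by 5.26 ± 0.28. The KP means lay between 0h and KM in all 5.

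The largest fall among annotated probe sets was that of a phosphorylmutase (LOC_Os12g08760), at 12.23, 12.22 and 12.27 in 0h, 6.26, 6.55 and 6.65 in KM and 12.61, 12.16 and 12.60 in KP. It was 53.9-fold below 0h (-5.75 ± 0.20, limma adjusted p = 9.84e-08) and -5.97 ± 0.20 against KP, so that the fall was seen without potassium and not with it. A MYB factor (LOC_Os02g46030) had the same pattern, from 7.47, 7.39 and 7.28 in 0h to background (2.60, 2.68 and 2.71) in KM with 7.97, 8.07 and 8.19 in KP. A chloroplast omega-3 desaturase (LOC_Os03g18070), which makes the trienoic fatty acids of leaf membranes, went from 12.32, 12.03 and 12.06 to 7.86, 7.95 and 7.99, with KP at 10.95 on average, 3.02 above KM. An early light-induced protein (LOC_Os01g14410) fell from 11.77, 11.62 and 12.22 to 7.49, 7.60 and 7.60, with KP again in between. A peroxidase (LOC_Os07g48050) was the clearest opposite case, at background in 0h (2.68, 2.69 and 2.64) and KP (2.65, 2.64 and 2.64) and at 6.70, 6.50 and 6.80 in KM.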

How the data were processed

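Whole-seedling RNA of 12 samples was hybridized to Affymetrix rice genome arrays. The authors acquired the scans with GCOS 1.2.1 and normalized them in ArrayAssist with GCRMA, and the values as deposited are linear intensities per probe set. They were converted to log2 with a floor of 1, which no value fell under. The 123 control probe sets were left out. One mean per group was fitted over all 12 arrays with limma 3.58.1 in R 4.3.3, and p-values were adjusted over 57258 probe sets by the Benjamini-Hochberg method. The number of arrays, 3 per group, limits the precision. The fit was tested on simulated data with known changes.

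Reference tables gave 22436 probe sets 1 gene, 95 several and 34727 none. A gene name, in part through RefSeq synonyms, was found for 3157 probe sets of 2430 genes, and 411 were named by locus from the category table of the study. The 40 gene lists (908 genes) and the comparison were chosen with earlier results of these data known. A gene with several probe sets was represented by that with the highest mean over 12 arrays, and list genes whose records mix the names of different genes were left out. Genes named were the 15 largest rises and 15 largest falls, up to 4 per list by adjusted p in KM against 0h and 2 in KM against KP, genes called in opposite directions in KM and KP, the 8 highest and 8 lowest in KM against KP, and all potassium transporter genes. Other list members, second probe sets and the 11 antenna and photosystem probe sets were chosen after their values were seen. The alternatives tried were another normalization, variance prior, fold threshold, filter, scale for low values, test, probe set choice, a replicate block and leaving out each array. No sequences are given here, since the tables used hold none.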

Additional observations from a re-analysis of the deposited data

Results flagged for a closer look

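The 10 annotated probe sets given here were called against 0h in opposite directions without and with potassium, as were 30 probe sets of the whole array, and had the largest differences among those with an annotation. Both changes use the same 0h arrays, so the difference between them equals KM minus KP and was tested as such. All but 1 fell in KM and rose in KP. The ferric reductase FRO1 differed by -4.81 on the log2 scale and the homeobox gene Hox22 by -4.03, with Hox22 arrays at 6.57 to 7.09 in 0h, 4.10 to 4.87 in KM and 8.23 to 8.62 in KP. A lipoxygenase (LOC_Os02g10120) differed by -4.01 and a C-terminal processing peptidase (LOC_Os06g21380) by -3.87. A B-box zinc finger protein (LOC_Os04g41560) differed by -3.68, at 9.83, 9.95 and 10.04 in 0h, 7.36, 7.86 and 7.57 in KM and 11.26, 11.35 and 11.23 in KP. A sulfate transporter (LOC_Os03g09930) differed by -3.44, a CCT and B-box zinc finger protein (LOC_Os09g06464) by -3.32 and a steroid dehydrogenase (LOC_Os07g06800) by -3.06, the last pair being near background in KM. A probe set assigned to the heat shock factor HSFA2D differed by -3.16, but the gene record mixes names of different genes and another of its probe sets was called higher in KM than in 0h (2.62). One probe set went the other way. A zinc finger protein (LOC_Os06g04920) rose in KM and fell in KP, a difference of 3.90, with 8.57, 8.65 and 8.23 in 0h, 11.27, 11.46 and 11.24 in KM and 7.49, 7.78 and 6.98 in KP. The opposite directions chose these 10 and so fix a wide difference between KM and KP. The KM call against 0h was lost for HSFA2D with the 2 groups' arrays alone, by the methods' t-test, without KM replicate 1, without 0h replicate 2 and after adding 16 to each value, and for LOC_Os07g06800 and LOC_Os09g06464 after adding 16.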

How the results depend on the processing

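The counts of probe sets called depended mainly on the fold threshold. For KM against 0h, 1.5-fold gave 5471 higher and 6121 lower, no fold threshold 7136 and 8516, and 4-fold 1282 and 780. For KM against KP these settings gave 1696 and 1668, 3495 and 2484, and 70 and 238. The methods' t-test lowered KM against KP to 281 higher and 441 lower, and adding 16 to each value before log2 lowered the higher count to 334. For KM against 0h that test gave 3205 and 3065. Leaving out each array gave 3398 to 3597 higher and 3237 to 3434 lower for KM against 0h, and 426 to 571 and 742 to 970 for KM against KP. Correlations of KM and 0h deviations were 0.129, 0.052 and 0.025 for same-numbered arrays and -0.16 to 0.077 for the others. With so few arrays they cannot decide whether the replicate numbers pair the samples. A replicate block gave 3521 higher and 3373 lower for KM against 0h and 515 and 846 for KM against KP. Of 249 probe sets named by the rule, 166 were called in KM against 0h, 141 of them under all 14 alternatives, and none reversed. Most calls lost were lost by adding 16 (17) or by the t-test (9). By group, adding 16 reduced the higher counts of cytokinin from 7 to 3 and of phosphate from 5 to 3. The t-test reduced low oxygen from 3 to 0, embryo and storage from 7 lower to 3, and expansins from 4 higher to 2. Counting every probe set of a gene raised potassium transport from 5 to 9 higher, CBL and CIPK from 7 to 11, carbon fixation from 4 to 9 and low oxygen from 3 to 6. The cause of these changes was not tested. Near background, where 34069 probe sets lay in both groups, small changes could not be measured.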
